A study of Mus musculus with 2 samples.

Results

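Bidirectional promoter peaks are the DNase I accessible sites that lie at the shared start of gene pairs transcribed away from each other. They were taken as replicate 1 peaks that overlapped a replicate 2 peak by 1 bp or more. Each had to lie between, or within 200 bp of, the transcription start sites (TSSs) of a head-to-head pair on chromosomes 1 to 19. A head-to-head pair was a minus-strand and a plus-strand protein-coding gene of GENCODE M21 whose 5'-most TSSs point away from each other and stand at most 1 kb apart. The rule gave 841 peaks of the 151215 shared replicate 1 peaks on these chromosomes. It found 734 pairings over 1448 of 20807 genes, and 714 of the pairings were mutually nearest, so that each gene counts in 1 pair. These 714 pairs hold 839 of the 841 peaks and are the base of every value per pair. Pairs are written with the minus-strand gene first.

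The peaks come from DNase-seq of whole mouse embryos at embryonic day 10.5. The embryos were of the B6NCrl strain, carried no stated transgene or treatment, were described as healthy, and were pooled over males and females. The data form 1 group of 2 biological replicates, so the comparison is between classes of promoter within each replicate. In DNase-seq the enzyme DNase I cuts nuclear DNA where nucleosomes and other proteins leave it exposed, and the positions of the cuts are counted.

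A bidirectional promoter is a stretch of DNA from which RNA polymerase II starts in both directions, each time into a different gene. Such promoters in mammals are typically CpG islands without a TATA box. They are known for housekeeping genes, among them genes of DNA repair, mitochondria and RNA handling. The nucleosome-poor stretch at an active promoter is the part that DNase I cuts.

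The following 9 stretches show what these promoters look like. They are the plus strand of mm10, 5' to 3', read from the RefSeq genome GRCm38.p6, which has the same chromosome lengths. Each is the part of a pair's strongest peak that lies between the TSSs or up to 30 bp inside either gene, and the stretches were chosen among pairs with at least 80 such bases on all but 1 of the 19 chromosomes, called eligible. Capitals mark exact matches, on either strand, to any of 16 short motifs. The NFY motif was searched as CCAAT, the SP/KLF motif as GGGCGG and the TATA motif as TATAAA. The ETS motif was CCGGAAGT, the YY1 motif AAGATGGCG and the CREB motif TGACGTCA. The E-box was CACGTG, the GATA motif AGATAA and the homeobox motif TAATTA. The E2F motif was searched in the forms TTTGGCGC and TTTCCCGC. Longer motifs were the cores of NRF1, RFX, ZNF143, CTCF and the Kaiso-type motif, and those of NRF1 and the Kaiso-type motif can be read in capitals in the stretches named for them. A few of the motifs can overlap, such as SP/KLF and E2F. On the opposite strand CCAAT reads ATTGG. A match describes the letters and is not evidence of binding, and a missing match says nothing about a factor.

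The first 4 are the strongest eligible pairs. They lie at chr1:88277603-88277685, chr17:34603676-34603825, chr11:120713756-120713905 and chr4:41464956-41465105. Hjurp is the chaperone that loads the centromere histone, and its stretch holds 1 ETS match and no CCAAT. The other 3 hold 2, 5 and 3 CCAAT matches in this order.
Hjurp/Trpm8: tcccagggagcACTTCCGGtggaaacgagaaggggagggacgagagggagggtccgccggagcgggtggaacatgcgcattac
Rnf5/Agpat1: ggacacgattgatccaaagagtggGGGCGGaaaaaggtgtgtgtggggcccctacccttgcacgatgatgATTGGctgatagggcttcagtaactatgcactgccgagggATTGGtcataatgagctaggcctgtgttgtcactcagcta
Cenpx/Lrrc45: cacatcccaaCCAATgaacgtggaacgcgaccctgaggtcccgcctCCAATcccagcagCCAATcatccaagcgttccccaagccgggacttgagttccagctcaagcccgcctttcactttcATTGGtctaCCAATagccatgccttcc
Kif24/Nudt2: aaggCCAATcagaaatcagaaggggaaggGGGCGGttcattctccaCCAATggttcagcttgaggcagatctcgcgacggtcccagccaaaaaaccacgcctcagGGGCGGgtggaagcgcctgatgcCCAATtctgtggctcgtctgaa

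The promoter shared by Mrps12, a protein of the mitochondrial ribosome, and Sars2, the mitochondrial seryl-tRNA synthetase, is a known bidirectional promoter and is shown for its 3 CCAAT matches. It lies at chr7:28741816-28741965, and its SP/KLF match overlaps its E2F match.
Mrps12/Sars2: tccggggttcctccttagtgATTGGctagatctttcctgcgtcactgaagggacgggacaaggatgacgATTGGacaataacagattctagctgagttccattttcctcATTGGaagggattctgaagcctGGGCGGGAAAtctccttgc

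The strongest eligible pairs with a match to NRF1, YY1 and the Kaiso-type motif follow. They lie at chr1:93478836-93478985, chr1:34439716-34439865 and chr17:14943128-14943214.
Hdlbp/Sept2: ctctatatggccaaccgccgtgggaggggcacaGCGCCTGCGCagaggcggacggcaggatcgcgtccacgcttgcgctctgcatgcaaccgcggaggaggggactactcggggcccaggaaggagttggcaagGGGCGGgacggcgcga
Ccdc115/Imp4: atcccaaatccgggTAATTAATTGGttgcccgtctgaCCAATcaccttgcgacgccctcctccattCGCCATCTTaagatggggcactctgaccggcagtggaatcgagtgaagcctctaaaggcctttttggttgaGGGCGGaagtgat
Wdr27/1600012H06Rik: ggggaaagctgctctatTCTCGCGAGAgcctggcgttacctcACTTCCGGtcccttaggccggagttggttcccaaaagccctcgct

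The weakest of these eligible pairs, which is among the 5 weakest of all open pairs, is S100a1/S100a13 at chr3:90514362-90514445. Both genes encode calcium-binding proteins. Its stretch has no match to any of the 16 motifs and only 2 CpG dinucleotides, against 7 in the Hjurp/Trpm8 stretch of nearly the same length.
S100a1/S100a13: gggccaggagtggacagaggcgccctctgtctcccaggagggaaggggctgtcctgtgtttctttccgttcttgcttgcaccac

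The replicates held 203095 and 223678 peaks on chromosomes 1 to 19. Each peak is 150 bp wide and carries the authors' whole-number score, called strength here. The definition of the score is not given in the sources used here, and it does not exceed 150, so differences among the strongest peaks are compressed. Strength is given as the replicate 1 value followed by the value of the best overlapping replicate 2 peak. Over all shared peaks the median strength was 48 in replicate 1 and 61 in replicate 2, so the replicates differ in scale. Of 30 marker genes of embryonic tissues on the autosomes, 22 had a shared peak within 200 bp of a TSS, and none of 4 markers of decidua and trophoblast did. The markers without such a peak were Sox2, Neurog2, Myf5, Tbx4, Cdh5 and Tek, and Klf1 and Hbb-y of primitive red cells. Over all protein-coding 5'-most TSSs the share with a shared peak within 200 bp was 58.6%. With 1 group of 2 replicates no comparison here can pass a test, since an exact two-sided permutation over 2 replicates cannot go below p = 0.5. Values are therefore given per replicate as a description. Intervals on shares are 95% Wilson intervals over promoters or peaks, and they do not cover the spread between embryos.

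Almost all head-to-head pairs were open, meaning that they had at least 1 bidirectional promoter peak. This held for 680 of 714 pairs, or 95.2% (93.4% to 96.6%). The comparison class was the single-TSS promoter, a protein-coding 5'-most TSS with no other such TSS within 1 kb on either strand. Of 18126 single-TSS promoters, 9926 had a shared peak within 200 bp, which is 54.8%. Over all protein-coding TSSs the share was 58.6%. A pair has a wider window than a lone TSS, so the same 200 bp window was also applied to each TSS. By this measure 1315 of 1428 paired TSSs were open, or 92.1%. In 636 of 714 pairs, or 89.1%, both TSSs had a shared peak within 200 bp. Each replicate alone gave a peak at 685 of 714 pairs.

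Most pairs were served by a lone peak. Of the open pairs, 539 had 1 peak, 128 had 2, 8 had 3 and 5 had 4. The mean was 1.23 peaks per open pair and 1.08 per open single-TSS promoter, with the wider window of pairs counting towards the first value.

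Bidirectional promoter peaks were stronger than peaks at single-TSS promoters in both replicates. Their median strength was 120 in replicate 1 and 125 in replicate 2 (mean 122.5 ± 3.54, SD, n = 2). Single-TSS promoter peaks had medians of 104 and 113 (mean 108.5 ± 6.36, SD, n = 2). The difference of medians was 16 in replicate 1 and 12 in replicate 2 (mean 14 ± 2.83, SD, n = 2). With equal 200 bp windows the strongest peak per open TSS had medians of 122 and 128 at paired TSSs and 106 and 115 at single TSSs. Against single-TSS promoter peaks of genes with 1 annotated TSS position, the difference of medians was 32 and 25.

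The difference was widest in the lower part of the distribution. The lower quartiles were 106 and 115 for bidirectional promoter peaks against 71 and 87 for single-TSS promoter peaks, while the upper quartiles were 129 and 133 against 121 and 127. In replicate 1, 50.9% of bidirectional promoter peaks reached a strength of 120, against 27.9% of single-TSS promoter peaks and 3.38% of all shared peaks. In replicate 2 these shares were 64.2%, 40.0% and 5.23%. A strength under 60 was found in 4.52% and 1.66% of bidirectional promoter peaks, against 18.2% and 9.06% of single-TSS promoter peaks. The range was 28 to 148 in replicate 1 and 29 to 149 in replicate 2.

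**Figure D1:**
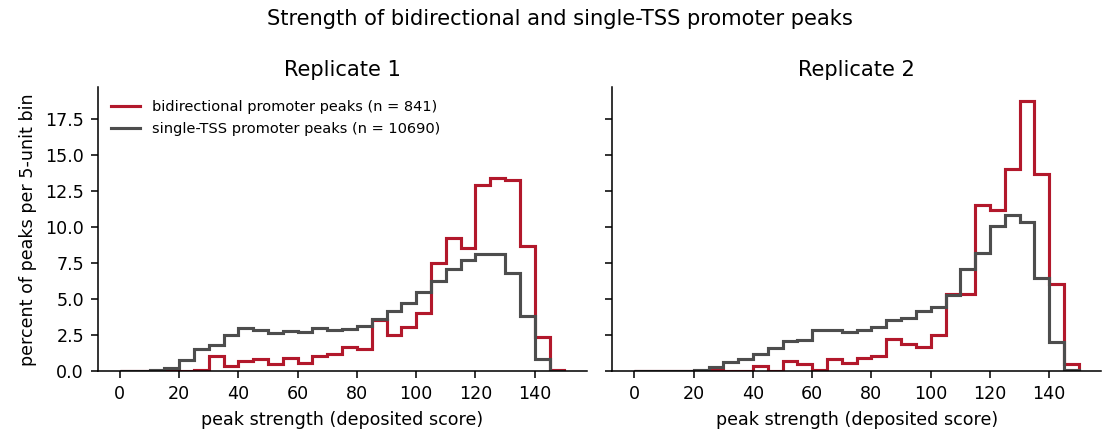
Distribution of peak strength, the deposited score without unit, in each replicate as the percent of peaks in bins of 5 units, for 841 bidirectional promoter peaks and 10690 single-TSS promoter peaks. Bidirectional promoter peaks lack most of the weak tail of single-TSS promoters, with 4.52% against 18.2% under 60 in replicate 1.

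Bidirectional promoter peaks, 841 of 151215 shared peaks, made up a larger share of the strongest peaks. The median bidirectional promoter peak was stronger than 96.6% of all shared peaks in replicate 1 and than 96.3% in replicate 2. Of the peaks at or above the strength that marks the strongest 1% of shared peaks, 188 of 1737 in replicate 1 and 170 of 1540 in replicate 2 were bidirectional promoter peaks. These are shares of 10.8% and 11.0%. Single-TSS promoter peaks, 10690 in all, were more numerous there. At strengths from 135 to under 140 they numbered 412 in replicate 1 and 692 in replicate 2, against 73 and 115 bidirectional promoter peaks.

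The strongest pair was Hjurp/Trpm8, with 148 in replicate 1 and 149 in replicate 2, and its TSSs stand 28 bp apart. Trpm8 is the cold-sensing ion channel of sensory neurons, and Hjurp is the centromere chaperone named above. Hs2st1/Selenof followed with 142 and 144, and Rnf5/Agpat1 with 143 and 142. Hs2st1 adds sulfate to heparan sulfate chains, Selenof is a selenoprotein of the endoplasmic reticulum, Rnf5 is a ubiquitin ligase, and Agpat1 is an enzyme of phosphatidic acid synthesis. The replicates put these pairs in nearly the same place, differing by at most 2 units.

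The other strong pairs lay within a few units of each other. Cenpx/Lrrc45, a centromere protein and a centrosome linker protein, had 139 and 145. Kif24/Nudt2 had 141 and 143, and Kif24 is a kinesin of the centriole. Tmtc3/Cep290, whose plus-strand gene encodes a protein of the ciliary transition zone, had 142 and 141. Cep57/Fam76b, with a centrosome protein, had 141 and 142. The 10 strongest also took in Ccdc151/Prkcsh at 140 and 143, Cks1b/Shc1 at 141 and 142, and Ranbp10/Tsnaxip1 at 141 and 142. At the tenth place 7 pairs were tied at a mean of 141.5, and ties were broken by name. These pairs were described by their rank, and no class of genes was tested among them.

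Peaks sat mainly in the stretch between the start sites. The peak centre lay between the TSSs for 542 of 841 peaks, or 64.4% (61.2% to 67.6%). Another 146, or 17.4%, lay inside the minus-strand gene, and 153, or 18.2%, lay inside the plus-strand gene. Peaks between the TSSs were the stronger ones, with medians of 123 and 128. Those inside the minus-strand gene had 111.5 and 119, and those inside the plus-strand gene 113 and 120. The strongest peak of a pair stood a median of 32 bp from the midpoint of the TSSs (quartiles 12.9 and 90.0 bp). Its signed distance, positive towards the plus-strand gene, had a median of 1.5 bp.

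Seen from each TSS, the strongest peak stood upstream more often in pairs. Its centre was upstream of the TSS for 1089 of 1315 open paired TSSs, or 82.8%, against 6968 of 9926 open single TSSs, or 70.2%. The median distance upstream was 47.5 bp for paired TSSs and 32.5 bp for single TSSs. For a pair, upstream of either TSS is the shared stretch, and the 2 TSSs of a pair often read the same peak.

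**Figure D2:**
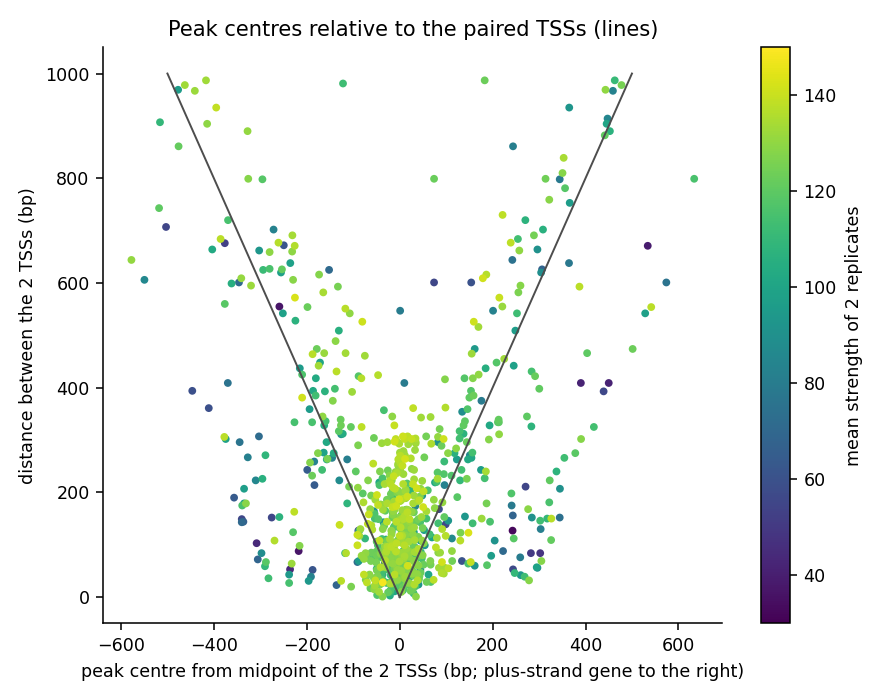
Position of 841 peak centres relative to the midpoint of the paired TSSs (bp, plus-strand gene to the right) against the distance between the TSSs (bp), coloured by the mean strength of the 2 replicates. Lines mark the TSSs. In pairs under about 300 bp apart peaks gather at the midpoint, and in wider pairs they split into a group at each TSS.

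The distance between the TSSs ranged from 1 to 987 bp, with a median of 127 bp and quartiles of 66 and 239 bp. In the classes used here the upper limit belongs to the class and the lower limit of the next one does not. Strength was lowest in the closest pairs and highest at 200 to 300 bp. The strongest peak per pair had medians of 119.5 and 125 in 290 open pairs at 1 to 100 bp. The medians were 126 and 130 in 184 pairs at 100 to 200 bp, and 128 and 132 in 85 pairs at 200 to 300 bp. They were 127 and 131 in 61 pairs at 300 to 500 bp and 124 and 129 in 60 pairs at 500 to 1000 bp. Both replicates gave this order, but the quartiles of neighbouring classes overlapped. Across the 680 open pairs, Spearman's rho of distance and mean strength was 0.24, as a description over pairs that share libraries.

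Peaks per pair grew with the distance, as the window grew. The mean was 1.08 peaks per open pair at 1 to 100 bp, 1.34 at 200 to 300 bp and 1.70 at 500 to 1000 bp. A pair had more than 1 peak in 7.24% of open pairs at 1 to 100 bp, 28.2% at 200 to 300 bp and 61.7% at 500 to 1000 bp. The strongest peak stood a median of 34.0 bp from the midpoint at 200 to 300 bp, 134.5 bp at 300 to 500 bp and 302 bp at 500 to 1000 bp.

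**Figure D3:**
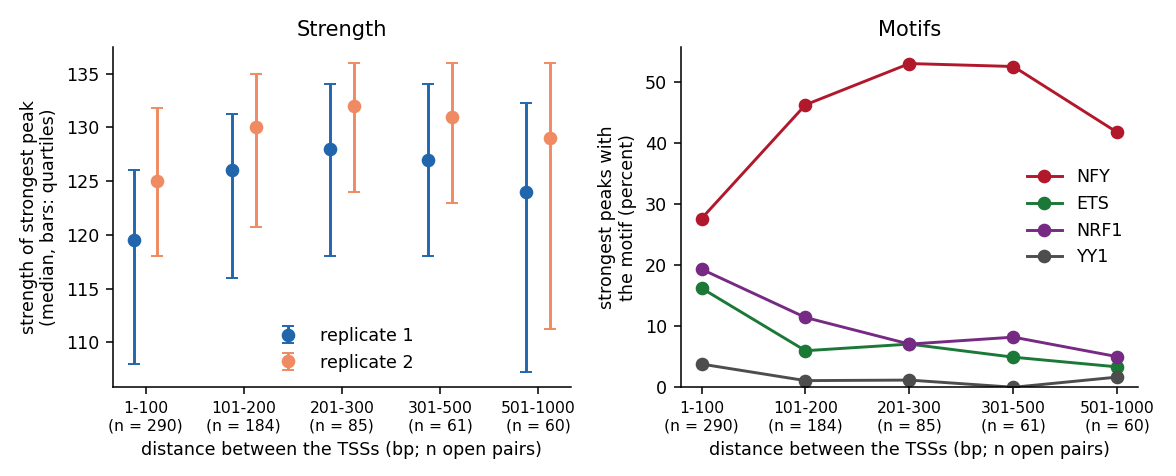
Left, strength (deposited score) of the strongest peak of each open pair by distance between the TSSs, as the median with quartile bars for each replicate. Right, percent of these peaks with an exact match to 4 motifs. Strength is lowest at 1 to 100 bp (119.5 and 125), where the NFY motif is also rarest, at 27.6%, and ETS and NRF1 are most frequent, at 16.2% and 19.3%.

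In wide pairs many had an open site at 1 TSS alone. Of 86 pairs over 400 bp apart, 48 had a shared peak within 200 bp of both TSSs, 30 at 1 TSS and 8 at neither. In 2 of the 48 the same peak served both TSSs. In the other 46 the stronger TSS had a median mean strength of 130 and the weaker TSS 105, values that the split into stronger and weaker sets apart by construction. The same TSS was the stronger in both replicates in 36 of 46. Spearman's rho between the TSSs of a pair was 0.26 across the 46 pairs.

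The open share was lower in wider pairs, and beyond 1 kb it was near that of all TSSs. Open TSSs were 94.1% of 1296 in pairs up to 500 bp apart and 72.0% of 132 in pairs at 500 to 1000 bp. They were 58.9% of 192 at 1000 to 2000 bp, 60.2% of 264 at 2000 to 3500 bp and 54.5% of 288 at 3500 to 5000 bp, near the 58.6% of all TSSs. Just inside the limit, Zfyve26/Rad51b at 978 bp had 129 and 137, Asphd1/Sez6l2 at 981 bp had 105 and 120, and Btf3l4/Txndc12 at 987 bp had 132 and 134. Just outside it, Gpr108/Trip10 at 1009 bp had 113 and 121, Sgsm2/Tsr1 at 1011 bp had 125 and 122, and Dirc2/Hspbap1 at 1019 bp had 104 and 114. The values on both sides overlap.

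Other arrangements of start sites fell between the extremes. Of single-TSS promoters, 969 had a head-to-head TSS of a gene of another type, such as a long noncoding RNA, and 82.4% of them were open, with medians of 116 and 123 among the open. The remaining 17157 were open in 53.2%, with medians of 105 and 114. Protein-coding TSSs whose 5' ends overlap a gene on the opposite strand were open in 81.3% of 873, with medians of 113 and 121. Protein-coding TSSs with a same-strand neighbour within 1 kb were open in 64.2% of 360, with medians of 115 and 123. Paired TSSs were above all of these, at 92.1% with medians of 122 and 128. Among CpG-rich promoters only, defined in the next paragraph, the open share was 97.2% for paired TSSs and 87.0% to 95.1% for the other classes.

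Head-to-head pairs were mostly CpG-rich. The CpG ratio is the count of CpG dinucleotides over the count that the base composition predicts, here within 500 bp of the TSS or pair midpoint, and a ratio of 0.6 or more was called CpG-rich. Of the pairs, 610 of 714, or 85.4%, were CpG-rich, against 42.4% of single-TSS promoters. Of CpG-rich single-TSS promoters 91.2% were open, against 97.2% of CpG-rich paired TSSs, a narrower gap than over all promoters. Within the peaks themselves the median CpG ratio was 0.883 for bidirectional promoter peaks and 0.80 for single-TSS promoter peaks, while the GC content was 64.0% and 65.3%. The peaks of pairs were thus richer in CpG but not in G and C.

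At equal CpG content paired TSSs had the higher median in both replicates, by a margin that varied with the CpG ratio. At a CpG ratio of 0.6 to 0.8, the medians were 123 and 129 at 582 open paired TSSs and 111 and 120 at 3866 open single TSSs. At 0.8 to 1.0 they were 122 and 128 against 115 and 122. At 0.4 to 0.6 the gap was the widest of the classes in both replicates, with 119 and 124 at 122 paired TSSs against 91 and 103 at 1850 single TSSs. Over all peaks of promoters with a ratio of at least 0.6 the difference of medians was 10 in replicate 1 and 7 in replicate 2. Across open promoters, Spearman's rho of CpG ratio and mean strength was 0.39 over 9926 single TSSs and 0.05 over 680 pairs, whose CpG ratios span a narrower range.

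**Figure D4:**
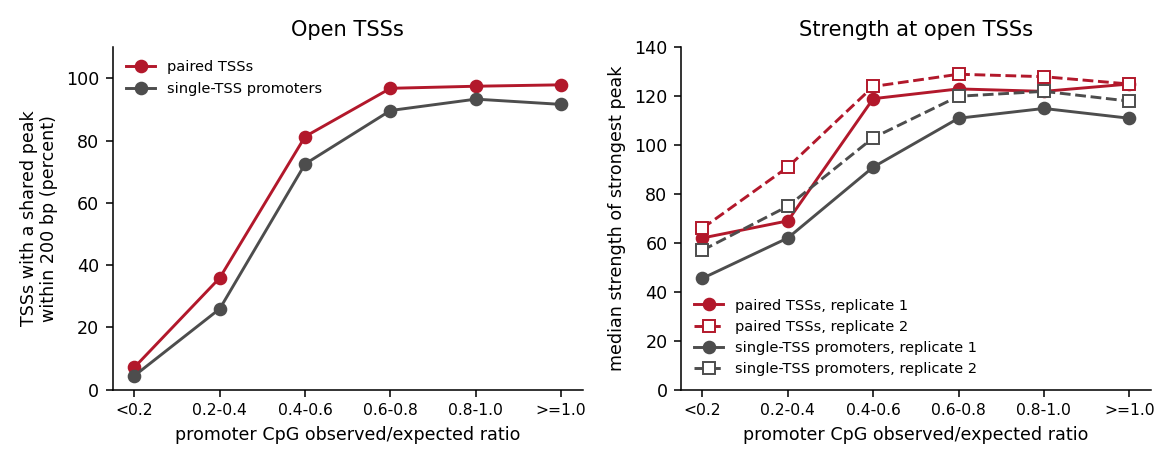
Left, percent of TSSs with a shared peak within 200 bp by CpG observed to expected ratio within 500 bp. Right, median strength (deposited score) of the strongest peak at open TSSs in each replicate. Paired TSSs are above single TSSs in every class, and the class under 0.2 holds only 2 open paired TSSs.

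Of the 16 motifs, CCAAT had the widest difference in median strength between bidirectional promoter peaks with and without a match. Of bidirectional promoter peaks, 307, or 36.5% (33.3% to 39.8%), held a CCAAT match on either strand, against 27.6% of single-TSS promoter peaks. Bidirectional promoter peaks with a match had medians of 128 and 132, and those without had 113 and 120. At single-TSS promoters the medians were 120 and 125 with a match and 97 and 108 without. NFY, the factor that binds this box, is a histone-like trimer known for keeping promoters free of nucleosomes.

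Strength was ordered by the number of CCAAT matches in both replicates and both classes. Among bidirectional promoter peaks the medians were 113 and 120 for 534 peaks with none, 126 and 130 for 192 with 1, 130 and 134 for 75 with 2, and 132 and 136 for 40 with 3 or more. The lower quartile of the last class, 128 and 132, was above the median of peaks with none. At single-TSS promoters the medians were 97 and 108, 115 and 122, 127 and 130, and 131 and 133. Peaks with 3 or more matches thus had nearly the same strength in both classes, and such peaks were 4.76% of bidirectional and 1.96% of single-TSS promoter peaks. In this order of matches the median CpG ratio of bidirectional promoter peaks was 0.901, 0.859, 0.877 and 0.788, and its part in the result was not tested.

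Most CCAAT matches stood upstream of the nearer start site, as did most peak centres. Of 477 matches in bidirectional promoter peaks, 370, or 77.6%, lay upstream of the nearer TSS, and the median was 37 bp upstream (quartiles 5 and 73 bp). Any position between the TSSs is upstream of both, and 64.4% of bidirectional promoter peak centres lay there. Whether matches lie upstream more often than the other bases of the peaks was not tested. The share of peaks with a match depended on the distance between the TSSs. It was 27.6% of strongest peaks at 1 to 100 bp, 46.2% at 100 to 200 bp, 52.9% at 200 to 300 bp, 52.5% at 300 to 500 bp and 41.7% at 500 to 1000 bp. Within each of these classes peaks with a match had the higher median in both replicates, from 126 against 115.5 in replicate 1 at 1 to 100 bp to 131 against 115 at 500 to 1000 bp.

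Motifs of housekeeping activators were more frequent in bidirectional promoter peaks, where peaks with a match had no higher median in both replicates. NRF1, an activator of nuclear genes for mitochondria, matched 12.5% (10.4% to 14.9%) against 7.06%. ETS matched 9.16% (7.39% to 11.3%) against 5.67%, YY1 matched 2.38% (1.54% to 3.64%) against 1.35%, and the Kaiso-type motif matched 1.78% (1.08% to 2.92%) against 0.711%. With and without an NRF1 match the medians were 121 and 123 against 120 and 126, and with and without an ETS match they were 119 and 125 against 120 and 125. For YY1 they were 112.5 and 124.5 against 120 and 125, and for the Kaiso-type motif 117 and 129 against 120 and 125. At single-TSS promoters peaks with an ETS match had medians of 116 and 123 against 102 and 112. ETS and NRF1 matches were concentrated in the closest pairs, at 16.2% and 19.3% of strongest peaks at 1 to 100 bp, and 3.33% and 5.0% at 500 to 1000 bp.

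Of the remaining motifs some were more frequent and some alike or rarer. The E2F motif TTTCCCGC matched 2.14% (1.36% to 3.36%) against 1.03%, and ZNF143 matched 0.951% (0.483% to 1.87%) against 0.421%, from 18 and 8 bidirectional promoter peaks. The E2F motif TTTGGCGC and RFX matched 6 peaks each, 0.713% against 0.412% and 0.561%, and the E-box matched 7.85% against 6.66%. SP/KLF matched 55.3% (51.9% to 58.6%) against 54.5%, and CREB matched 3.21% against 2.93%. The TATA motif matched 1.31% (0.732% to 2.33%) against 2.63%, CTCF 1.43% against 1.98%, GATA 1.31% against 1.58% and homeobox 0.713% against 0.683%. Among CpG-rich promoters the order of both classes was the same for NRF1 (13.7% against 9.07%), ETS (10.1% against 6.93%), CCAAT (35.9% against 27.2%) and TATA (1.08% against 2.08%). It turned for SP/KLF (58.1% against 61.6%), CREB (3.49% against 3.51%) and homeobox (0.403% against 0.544%).

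**Figure D5:**
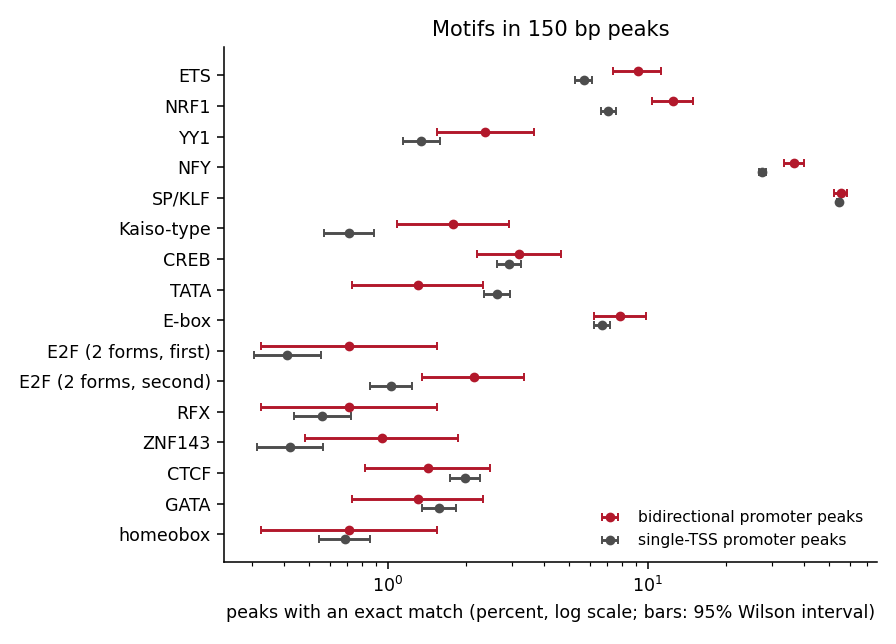
Percent of 150 bp peaks with an exact match on either strand to each of 16 motifs, on a log axis, with 95% Wilson intervals, for 841 bidirectional and 10690 single-TSS promoter peaks. NRF1, ETS, NFY and Kaiso-type matches are more frequent in bidirectional promoter peaks, TATA is rarer, and SP/KLF is at 55.3% against 54.5%.

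Bidirectional promoter peaks lay in wider hotspots, the broader enriched regions that the authors deposited beside the peaks. All 841 lay inside a hotspot in each replicate, as did all 10690 single-TSS promoter peaks. The hotspot around a bidirectional promoter peak had a median width of 1066 bp in replicate 1 and 1726 bp in replicate 2, against 794 bp and 1433 bp. The deposited −log10 q-value of the hotspot was at its ceiling of 100 for 98.5% and 99.6% of bidirectional promoter peaks, against 86.5% and 92.5% of single-TSS promoter peaks.

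Gene families, taken by gene symbol, differed in how many of their genes stood in pairs. Over all protein-coding genes 1428 of 20807, or 6.86%, stood in the 714 pairs. Histone genes had the highest share of the 18 groups listed, 27 of 67, since H2A and H2B genes lie head to head in clusters. DNA repair and replication genes followed with 27 of 103, RNA polymerase and splicing genes with 18 of 75, mitochondrial ribosome genes with 18 of 78 and respiratory chain genes with 23 of 107. Cytosolic ribosome genes were at 8 of 79. At the other end stood 2 of 42 collagens, 17 of 358 solute carriers, 3 of 164 patterning factors and 1 of 1454 olfactory and vomeronasal receptors. These shares describe the annotation and not the embryo.

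Pairs of the housekeeping groups were open about as often as all pairs, of which 95.2% were open. All 18 mitochondrial ribosome pairs were open, with medians of 120 and 127.5, and so were all 18 pairs of RNA polymerase and splicing genes, with 124 and 132.5. Of the respiratory chain pairs 22 of 23 were open, with 118.5 and 129. Of the DNA repair and replication pairs 24 of 26 were open, with 127.5 and 128.5. A pair can be open through its other gene or its wider window. With the 200 bp window at the TSSs of the group's own paired genes, 18 of 18, 17 of 18, 22 of 23 and 23 of 27 were open, in the same order. By this window the single-TSS genes of the same groups were open in 41 of 44, 44 of 48, 60 of 70 and 60 of 70. These single-TSS shares lie above the 54.8% of all single-TSS promoters.

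Pairs of the cell cycle group, taken by symbols such as Cdc, Cdk, Ccn and Cenp, had the highest medians of the groups. These were 133 and 137 over 11 open pairs of 12. A symbol alone does not show a role in the cell cycle. Among these pairs Cenpx/Lrrc45 had 139 and 145, and Cdk5/Slc4a2 had 141 in each replicate. Single-TSS cell cycle genes had 118 and 125. For cytosolic ribosome genes the order was the other way, with 121 and 125 over 7 open pairs and 124 and 131 at 59 open single TSSs. It was also the other way for mitochondrial import genes, with 114 and 122.5 over 4 pairs and 127 and 130 at 15 open single TSSs. Proteasome genes had 114 and 124 over 7 pairs and 118 and 124 at 31 open single TSSs. With 4 to 11 pairs these medians rest on few values.

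Of 14 histone pairs 11 were open, with medians of 132 and 133. The strongest were Hist1h2ah/Hist1h2bk at 139 and 138, Hist1h2bf/Hist1h2ad at 133 and 142 and Hist1h2ag/Hist1h2bj at 130 and 136. Bola1/Hist2h2ab, with a histone gene on the plus strand only, had 109 and 114. Hist1h2bq/Hist1h2ao, Hist1h2ap/Hist1h2br and Hist1h2ba/Hist1h2aa had no peak in either replicate, although their CpG ratios were 0.975, 0.966 and 0.771. Many histone genes are near-identical copies of another histone gene. Whether this holds for each pair without a peak, such as Hist1h2ba/Hist1h2aa, was not examined. Whether reads can be placed uniquely at these pairs was not examined either.

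Few pairs held an olfactory or vomeronasal receptor gene or a gene of the patterning factor group, both taken by gene symbol. Receptor genes of other kinds were not counted. Nt5c3/Vmn1r4 joins a nucleotidase gene to a vomeronasal receptor gene, with TSSs 83 bp apart, and had 116 and 130. Only 13 of 1441 single-TSS olfactory and vomeronasal receptor genes, or 0.902%, were open, with medians of 32 and 33. Foxa3/Sympk, at 839 bp, had 130 and 139 at the TSS of Sympk, an mRNA 3' end processing scaffold. The Foxa3 TSS had no shared peak within 200 bp. Rhno1/Foxm1 had 110 and 108, and Sox6/1110004F10Rik had 69 and 82.

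Of 18 pairs known from textbooks, 10 met the rule and 8 of these were open. Atm/Npat, the DNA damage kinase and a coactivator of histone genes, had 137 and 139. Mcm4/Prkdc, a helicase subunit and the catalytic subunit of the DNA-dependent kinase, had 128 and 135 at the Mcm4 TSS. The Prkdc TSS, 466 bp away, had no shared peak within 200 bp. Brca1/Nbr1 had 124 and 126. Wrn/Purg, with TSSs 798 bp apart, had 115 and 122 at the Wrn TSS and 73 and 84 at the Purg TSS. Outside the textbook list, Xrcc3/Zfyve21, whose minus-strand gene acts in recombination repair, had 140 and 143. Of metabolic pairs, Gart/Son had 132 and 143, from a peak centred 264.5 bp inside Son. The replicate 2 peak of 143 lay outside the 200 bp window, where the highest replicate 2 value was 122. The Gart TSS had 123 and 122. Hadha/Hadhb, the subunits of the mitochondrial trifunctional protein, had 105 and 116.

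The rule missed 8 of 18 textbook pairs because their annotated 5'-most TSSs overlap rather than point away from each other. All had a shared peak between or within 200 bp of their TSSs. Hspd1/Hspe1, the mitochondrial chaperonin pair, overlaps by 111 bp and had 133 and 132. Paics/Ppat overlaps by 271 bp and had 122 and 131, and Tcp1/Mrpl18 overlaps by 644 bp and had 139 and 146. Col4a1/Col4a2, the basement membrane collagen pair, overlaps by 21 bp and had 90 and 84. Tap1/Psmb9 had 104 and 116, Surf1/Surf2 had 94 and 117, and Fen1/Tmem258 had 100 and 111. None of these 8 is among the 714 pairs.

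The 5 weakest open pairs lay far below the median of open pairs, which was 123 and 128. Stap2/Mpnd had 36 in replicate 1 and 29 in replicate 2, from a peak 180 bp inside Mpnd. Pcdh12/Rnf14 had 44 and 42, and Pcdh12 is a protocadherin of endothelium. Sncg/Mmrn2 had 53 and 52, S100a1/S100a13 had 39 and 67, and Il17rb/Chdh had 53 and 57. Of these 5 pairs, 4 had a promoter CpG ratio from 0.195 to 0.415, and Il17rb/Chdh had 0.609, against a median of 0.781 in open pairs. In a whole embryo, fewer cells with an open site and less opening per cell cannot be told apart.

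No bidirectional promoter peak was found at 34 pairs. Of these, 27 had no peak in either replicate, 2 had a peak in replicate 1 only, 2 in replicate 2 only, and 3 had peaks in both that did not overlap. Shld2/Glud1 was of the last kind, with 119 and 123, so it was without a shared peak only by the overlap rule. The median promoter CpG ratio of the 34 pairs was 0.348. In alphabetical order the first 5 were 4930430F08Rik/1700017N19Rik, 4931428L18Rik/Pih1d3, Aspa/Gm49340, Best1/Rab3il1 and Bhmt2/Dmgdh.

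Some of the 34 pairs had an open site at another annotated start. In 18 pairs 1 gene, and in 1 pair both genes, had a shared peak within 200 bp of another annotated TSS. In 15 pairs neither did. The share of genes in general with an open site at another TSS is not given here, so these counts have no background. Some of the sites were weak and far, such as 36 and 41 for Pecam1 at 35363 bp and 35 and 38 for 4931428L18Rik at 126230 bp. Rad51c, of the Rad51c/Tex14 pair, had 114 and 130 at a TSS 431 bp from its 5'-most one, and Surf4, of Surf4/Stkld1, had 122 and 122 at 545 bp. Rps2 had 133 and 130 at 1947 bp, and Xrcc1 had 135 and 139 at 861 bp. Sirt1/Dnajc12 was the pair with both genes open elsewhere, with 103 and 112 for Sirt1 and 110 and 110 for Dnajc12. Among the 15 were Col4a4/Col4a3, which had only a replicate 2 peak of 46, Duox2/Duoxa2 of thyroid hormone synthesis and Il11/Tmem190. The 5'-most annotated TSS is thus not always the one with the open site.

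The replicates ranked bidirectional promoter peaks alike. Spearman's rho of the replicates was 0.90 over 841 peaks and also 0.90 over all shared peaks. It was 0.95 over single-TSS promoter peaks, which span a wider range than bidirectional promoter peaks. The replicate peaks overlapped by 75 bp or more in 97.5% of bidirectional promoter peaks, 95.7% of single-TSS promoter peaks and 91.9% of all shared peaks. On the log2 scale, replicate 2 strength over replicate 1 strength had a median of 0.08 for bidirectional promoter peaks, 0.12 for single-TSS promoter peaks and 0.26 for all shared peaks. Among peaks of strength 110 to 130 in replicate 1 it was 0.07 in both promoter classes.

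Of the 5 pairs farthest from the median ratio of open pairs in each direction, those with the higher replicate 2 had 39 to 77 in replicate 1. Of those with the higher replicate 1, 4 had 121 to 134 in replicate 1, and Stap2/Mpnd had 36. Replicate 2 was the higher in S100a1/S100a13 (39 and 67), Zfp942/Zfp943 (55 and 87), Kctd19/Lrrc36 (47 and 74), Gm49661/Prdx2 (77 and 110) and Zfp944/Zfp758 (48 and 66). Many zinc finger genes of this kind lie in clusters of similar copies, and whether reads can be placed uniquely there was not examined. Replicate 1 was the higher in Stap2/Mpnd (36 and 29), Tbc1d16/Ccdc40 (121 and 108), Chmp1a/Spata33 (131 and 117), Ttc13/Arv1 (131 and 119) and Adam9/Tm2d2 (134 and 124). Depth is unknown from the files, and its part in these differences was not tested.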

How the data were processed

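DNase-seq peaks and hotspots were deposited by the authors for each of 2 biological replicates, on mm10 per the labels. Which aligner, caller, thresholds and correction for DNase I sequence preference were used is not given in the sources used here. The deposited peak score is a whole number of unstated definition, bounded at 150. The deposited hotspot value is a −log10 q-value, with a ceiling of 100. From 208148 and 229803 deposited peak lines, 28 and 47 repeats were dropped, and chromosomes 1 to 19 were kept. Depth is unknown.

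TSSs were the 5'-most of each protein-coding gene in GENCODE M21. Pairs, motifs, gene groups and lists were chosen with earlier results of these data known. Named pairs were the 10 strongest, the 5 weakest, the first 5 without a peak by name, the 5 most unequal between replicates in each direction, 3 on each side of 1 kb, the 3 strongest per gene group, and 18 textbook pairs. Some pairs that this rule takes are not reported here. Others were named after their values were seen, among them the printed sequences and the pairs with another open TSS. The counts of CCAAT matches, motifs by distance and the other TSSs of pairs without a peak were also added after seeing the data. Overlaps, pairs, nearest peaks and motif counts were computed with Python 3.11.15, pandas 2.3.3 and numpy 2.4.6 and tested on simulated data. Alternatives changed the TSS distance, window, overlap, transcript set, single-TSS class, CpG content, peaks kept and replicates.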

Additional observations from a re-analysis of the deposited data

How the results depend on the processing

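Bidirectional promoter peaks kept the higher median strength under each alternative run, and the difference of medians against single-TSS promoter peaks, 14 as the mean of both replicates, ranged from 8.5 to 28.5. It was 8.5 in promoters of CpG ratio 0.6 or more and 28.5 against single-TSS promoters of genes with 1 annotated TSS. At equal TSS windows the main value of 14.5 became 9 and 27.25. Against genes with 1 annotated TSS the difference in median log2 replicate ratio was -0.079 in place of -0.042, and that in CpG ratio 0.135 in place of 0.083. The difference in peaks per open promoter, 0.157, became 0.112 at TSSs at most 500 bp apart, 0.117 with a 100 bp window and 0.199 with basic transcripts. The share of peaks between the TSSs, 64.4%, became 70.3% with a 100 bp window. Leaving out either replicate meant taking all peaks of the other, shared or not, so the set of peaks also changed. The strength difference was then 16 to 18, or 14 to 17 at equal windows, and 95.9% of pairs were open. The difference in peaks per open promoter was 0.161 to 0.209, and 60.8% to 62.2% of peaks lay between the TSSs. In all, 39 of the values recomputed moved by less than 1 SD of the replicates, or stayed within the 95% interval of a share or median, and 14 moved by more, and the cause was not tested. No paired analysis was possible because there is 1 group only, with no second group to pair by replicate, and promoter classes were compared within each replicate. The bounded score, unknown depth and 2 replicates limit every comparison of strength.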
